A study of Homo sapiens with 4 samples.

Results

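The genes described here are leukocyte surface antigens and antigen presentation genes on a 2-colour oligonucleotide array, measured in a cell line that is not of leukocyte origin. They were chosen by the name printed in the array files alone: CD antigens, HLA genes, TAP1, B2M, PTPRC, LYZ, Fc receptors and the natural killer, LY6 and checkpoint families. The rule found 39 genes, each with 1 probe printed as 2 spots, among 1856 probes. A further 6 genes (CD27, CD40, CD40LG, CD52, CD70 and CD82) meet the rule by their current symbols but stand under older names in the files, and antigens filed under other names are likewise not included. The cells were SW480, an established line from a colon adenocarcinoma, grown in DMEM F12 with 10% fetal bovine serum. The control cells received 15% (v/v) MRS, a bacterial growth medium, for 10 h. The BM cells received 15% of a postbiotic of Bacillus mojavensis, a preparation from a culture grown in that medium, also for 10 h. Each group held 2 samples, described by the submitters as separately grown, and all of them come from 1 cell line. Array 1 carried replicate 1 of both groups and array 2 carried replicate 2, which the submitters' own sample names number 2 and 3. Neither array swapped the dyes: the MRS channel was always Alexa Fluor 555 and the BM channel always Alexa Fluor 647, and dye and treatment cannot be told apart in any ratio given here. The groups were taken from the sample titles, since the treatment field names MRS medium for all 4 samples.

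Class I molecules, built from an HLA heavy chain and B2M, show peptides from inside the cell to CD8 T cells, after TAP has carried those peptides into the endoplasmic reticulum. Nearly all nucleated cells, those of the colon epithelium included, make class I, whereas class II (HLA-DR, HLA-DQ and the invariant chain CD74) is made mainly by dendritic cells, macrophages and B cells and can be induced on epithelium by interferon gamma. CD numbers name surface proteins first catalogued on leukocytes. Many of them, such as CD44, CD47 and the tetraspanins, are also known on epithelial cells, while others, such as CD3, mark a single leukocyte lineage.

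The median raw intensity over all spots that were not controls was 1985 and 2186 in MRS replicates 1 and 2 and 1655 and 1895 in BM replicates 1 and 2. The median local background was 49.6 and 51.9 in the MRS channel and 79.5 and 101.7 in the BM channel. Raw intensity divided by local background had a lower median in the BM channel on both arrays. This quotient is used below only to say how far a signal stood above its surroundings within a sample, and the groups are compared by the loess-normalised ratio.

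Most of the 39 probes gave a signal far above local background. In all 4 samples, 38 of 39 reached 1.5 times background, against 97.8% of all 1856 probes, and 26 of 39 reached 10 times background, against 61.1% of all probes. Their median signal over background was 58.5 and 53.6 in MRS replicates 1 and 2 and 31.0 and 25.7 in BM replicates 1 and 2. The same medians over all probes were 39.1, 40.2, 21.4 and 18.9. The exception to the lower mark was CD3G, a signalling chain of the T cell receptor, at 2.61 and 1.62 times background with MRS and 1.82 and 1.42 with BM.

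The array also holds 54 control oligonucleotide spots of a kind that the sources used here do not give. They too stood above background, with medians of 5.58, 6.80, 3.09 and 3.22 in MRS replicates 1 and 2 and BM replicates 1 and 2. The highest of them reached 94.2, 104.0, 52.0 and 43.0 in the same order. In all 4 samples, 33 of the 39 probes lay above the median control spot of the sample, against 82.7% of all probes. The 6 that did not were CD3G, CD9, CD74, KLRG1, FCER1A and FCGR2A. The highest control spot was exceeded in all 4 samples by 8 of the 39, against 19.1% of all probes. Among the 8 were B2M, HLA-DRB4, CD38, CD33, FCGR1A, CD47 and CD59.

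Most probes of the leukocyte lists, whose genes are not all restricted to a single lineage, also stood above background. The 16 genes of the pan-leukocyte, T cell, B cell, myeloid, Fc receptor and natural killer lists had median signals over background of 41.5 and 34.9 with MRS and 22.2 and 16.6 with BM. In all 4 samples 15 of the 16 reached 1.5 times background (97.8% of all probes) and 9 reached 10 times (61.1%). The median control spot was exceeded in all 4 samples by 12 of the 16 (82.7% of all probes). Of a list of 20 leukocyte markers 8 were on the array, all of them among these 16 genes. In all 4 samples 7 of the 8 reached 1.5 times background, against 97.8% of all probes. The mark of 10 times was reached by 5, against 61.1% of all probes. The medians of the 8 were 67.3, 49.7, 39.9 and 22.9 in MRS replicates 1 and 2 and BM replicates 1 and 2. Of 10 colon epithelial markers 4 were on the array (EPCAM, KRT19, CEACAM5 and GPA33), with medians of 65.0, 75.3, 40.9 and 34.1. A wider list of colon epithelial genes, of which 9 were measured, had lower medians of 22.2, 37.5, 13.4 and 19.9. The adhesion molecule EPCAM, which marks epithelial cells, stood at 276 and 254 times background in MRS and 161 and 111 in BM.

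Markers of other cell types ranged from the level of the control spots to far above it. Of 9 fibroblast markers 6 were measured, with medians of 46.1 and 78.8 in MRS and 27.0 and 39.4 in BM, running from THY1, a surface glycoprotein, at 2.45 to 8.13 times background to COL3A1, a fibrillar collagen gene, at 474 to 783. Of 5 endothelial markers 2 were measured, with medians of 18.8 and 34.0 in MRS and 10.7 and 18.4 in BM, and the endothelial cadherin gene CDH5 stood at 2.21 to 3.70. PTPRC (CD45), which is carried by all nucleated blood cells, was 90.2 and 53.6 times background in MRS and 56.7 and 25.7 in BM. What part of these signals comes from the named transcript was not tested, and signals of different probes were not compared as levels of RNA.

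**Figure D1:**
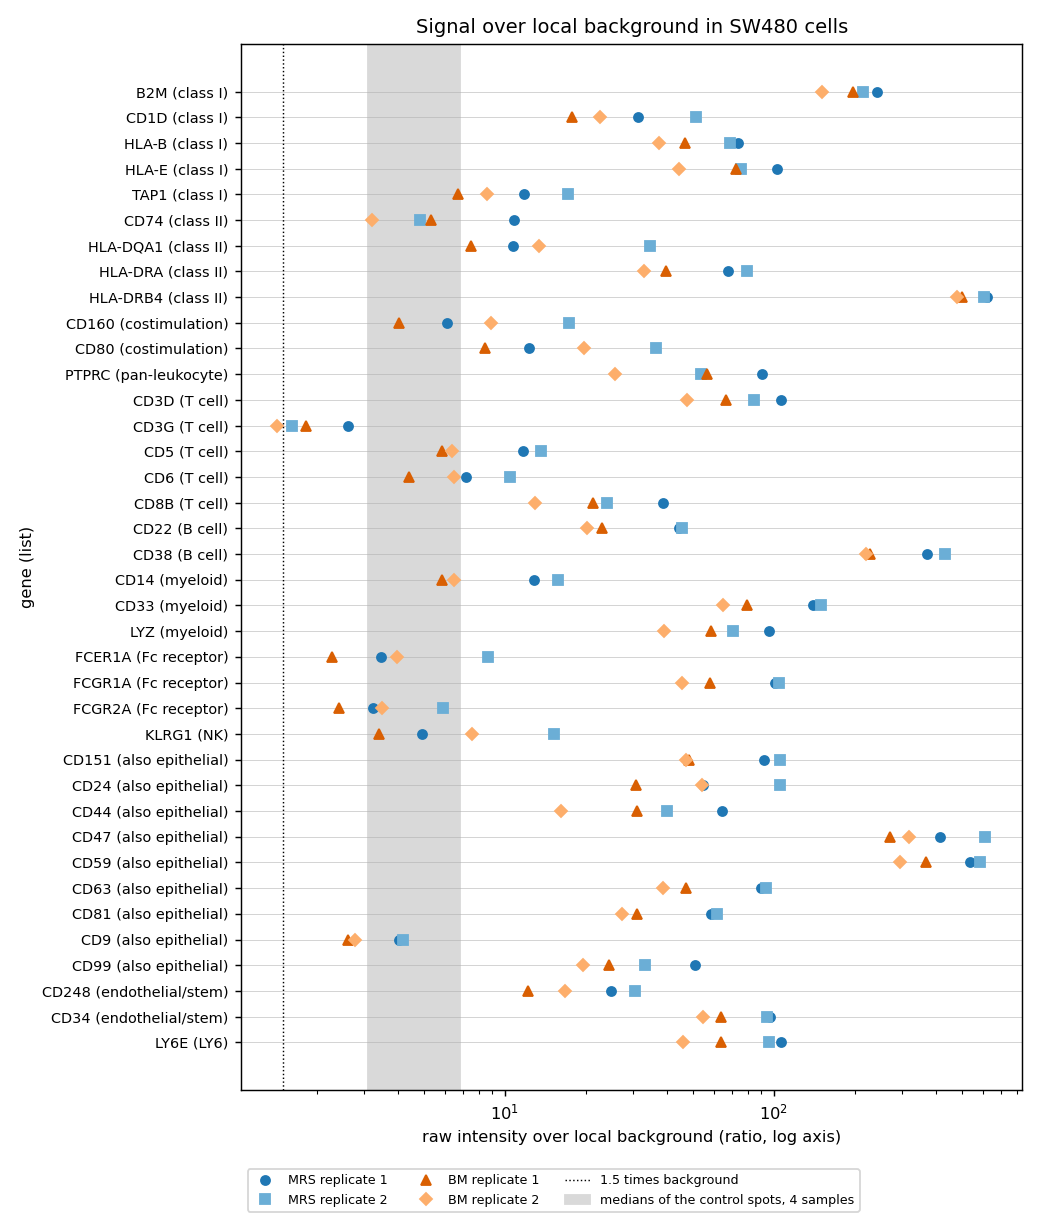
Raw intensity over local background of the genes described in each of the 4 samples, on a log axis. Circles and squares are MRS replicates 1 and 2, triangles and diamonds BM replicates 1 and 2, each the mean of 2 spots. The dotted line marks 1.5 times background and the grey band spans the medians of the control spots, from 3.09 to 6.80. Only CD3G in BM replicate 2 falls left of the dotted line.

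The comparison of BM with MRS asks whether the postbiotic was accompanied by other levels of these transcripts than the medium it was made in. No gene of the 39 passed the test: limma gave 0 genes with an adjusted p under 0.05, as it did for 0.0% of the 1856 probes, and the smallest adjusted p among the 39 was 0.571. At an unadjusted p under 0.05, 2 genes were higher in BM (CD80 and LY6E) and 2 were lower (PTPRC and CD24), where 3.29% of all probes were higher and 3.29% lower. The mean log2 ratios of BM over MRS ran from -0.21 to 0.34. Their median was -0.0057, equal to the median of all probes at -0.0057, and the median of their absolute values was 0.060 against 0.051 over all probes. On arrays 1 and 2 taken singly, the median ratio of the 39 was 0.031 and 0.030, against -0.0037 and -0.0058 over all probes. Other transcript levels per cell and another share of cells that carry the transcript cannot be told apart in RNA from whole cultures.

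The signs on the 2 arrays were read beside those of all probes. Both arrays put 13 of the 39 genes higher in BM (24.6% of all probes) and 8 lower (28.4%), and for 18 the signs were opposite (46.9%). An absolute mean ratio of at least 0.2 was met by 2 genes, CD80 and HLA-DQA1, and by 4.47% of all probes. Duplicate spots of a gene were close, with a median difference between their log2 ratios of 0.029 on array 1 and 0.028 on array 2. The SD between the arrays had a median of 0.061 over the 39 genes and 0.063 over all probes.

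**Figure D2:**
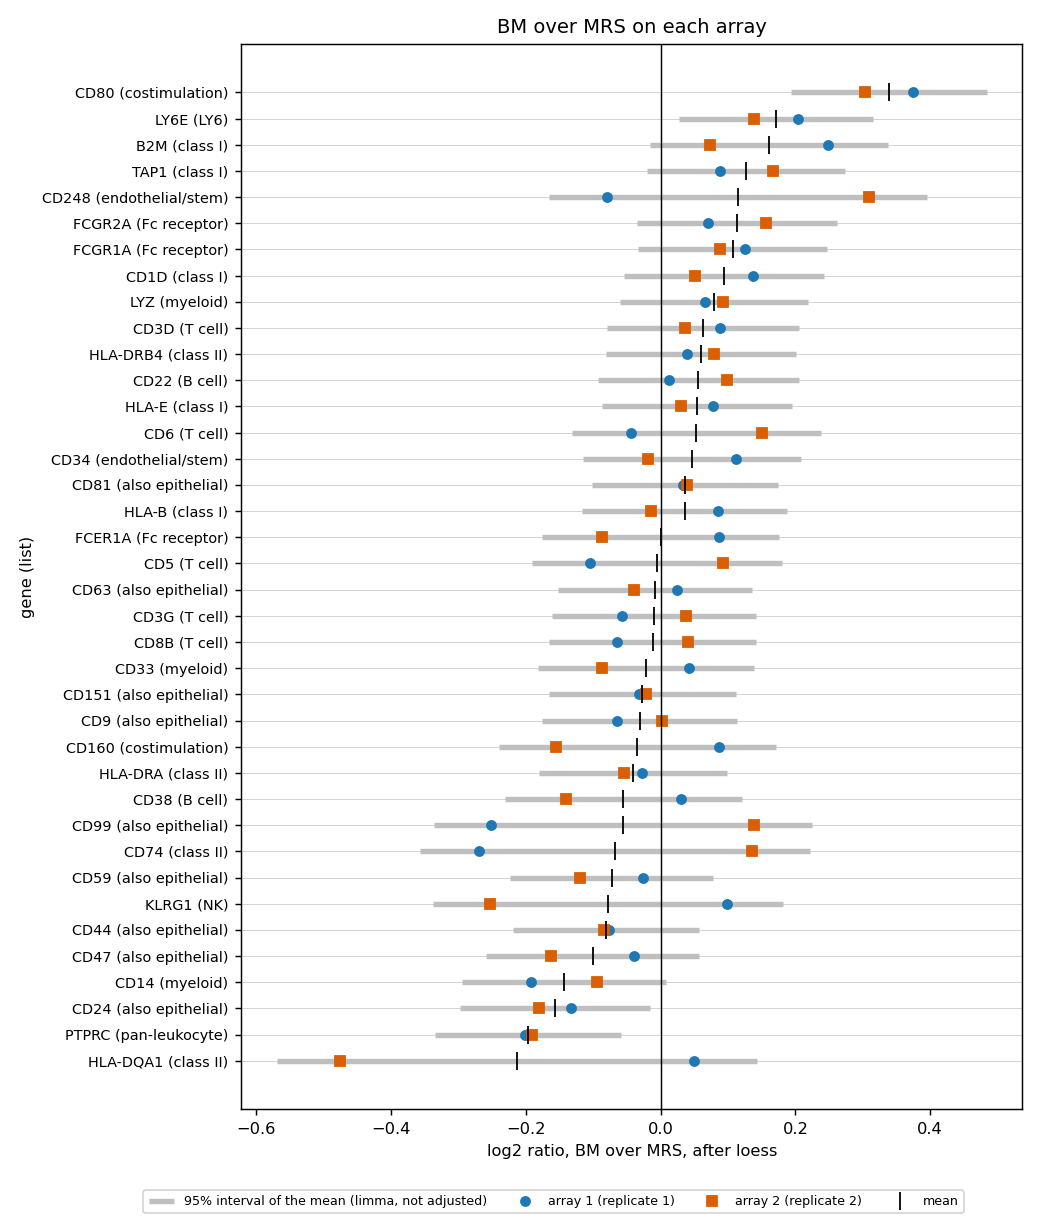
Log2 ratio of BM over MRS after loess for the genes described, ordered by their mean. Circles are array 1, squares array 2, black ticks the mean and grey bars the unadjusted 95% interval of the mean from limma. The interval lies above 0 for CD80 and LY6E and below 0 for PTPRC and CD24, and the symbols of HLA-DQA1, CD74, CD99 and CD248 lie far apart.

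No gene of class I presentation passed the test. On both arrays 4 of the 5 measured genes were higher in BM (24.6% of all probes) and 0 were lower (28.4%), and the remaining one, HLA-B, had opposite signs. With 5 genes this is a count and not a test of the group. The median of their mean log2 ratios was 0.094, against -0.0057 over all probes, and 0 of the 5 had an unadjusted p under 0.05. The mean ratio of each of the 5 was also above 0 with plain background subtraction, median centring, print-tip loess and the series matrix values.

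B2M encodes the light chain shared by class I molecules. Its normalised log2 level was 13.80 and 13.95 in MRS replicates 1 and 2 and 14.05 and 14.03 in BM replicates 1 and 2. Both BM samples lay above both MRS samples, the nearest at 14.03 and 13.95. How many of all probes separated in this way was not counted, so the order is given as a description only. The ratio was 0.25 on array 1 and 0.074 on array 2, with a mean of 0.16 ± 0.12 (SD, n = 2; limma, adjusted p = 0.770). The mean was 0.35 with median centring in place of loess.

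TAP1, a subunit of the peptide transporter, had normalised log2 levels of 9.28 and 9.39 in MRS and 9.37 and 9.56 in BM. BM was higher than its MRS partner on each array, but BM replicate 1 lay below MRS replicate 2. The ratio was 0.088 and 0.17 on arrays 1 and 2, with a mean of 0.13 ± 0.056 (SD, n = 2), or 1.09-fold, and a 95% interval from -0.020 to 0.27 (limma, adjusted p = 0.770). CD1D, which presents lipids to natural killer T cells, had log2 levels of 10.55 and 11.12 in MRS and 10.68 and 11.17 in BM. Its ratios were 0.14 and 0.051, and the groups overlapped because array 2 was higher than array 1 in both.

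HLA-E, a class I heavy chain read by natural killer receptors, had ratios of 0.077 and 0.030 (mean 0.054 ± 0.033, SD, n = 2). HLA-B, a classical heavy chain, had 0.084 on array 1 and -0.014 on array 2. HLA genes have near-identical relatives, and signal from those could not be separated from that of the named gene.

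Promoters of class I genes are known to carry a Y box, an element bound by the factor NF-Y, and the stretches around it in 2 of these genes are shown because HLA-B and B2M encode the 2 chains of one class I molecule. The stretches are from RefSeq on GRCh38.p14, written 5′ to 3′ on the gene's strand, at chr6:31357216-31357247 (minus strand) for HLA-B and chr15:44711453-44711484 (plus strand) for B2M. Capitals mark matches to the Y box CTGATTGG on either strand, searched in the 250 bases before the start of transcription.
HLA-B: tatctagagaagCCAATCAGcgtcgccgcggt
B2M: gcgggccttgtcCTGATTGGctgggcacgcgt

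The match in HLA-B reads on the opposite strand to that in B2M. Of the 39 genes 26 had a promoter in the table, and the Y box was present in 3 of the 26 (HLA-B, B2M and FCGR2A) and in 3.81% of all 35116 promoters. The first count is per gene, matched if any of its promoters matched, and the share is per promoter, so they are not like for like. A match is a description of these letters and not of binding.

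Class II genes did not share a direction. On both arrays 1 of the 4 measured genes was higher in BM (24.6% of all probes) and 1 lower (28.4%). Signs differed between arrays for 2 (46.9%), and the median mean ratio was -0.054. HLA-DQA1, the alpha chain of HLA-DQ, had normalised log2 levels of 9.53 and 10.94 in MRS and 9.58 and 10.46 in BM. On array 1 the samples were nearly level and on array 2 BM was the lower one, with ratios of 0.049 and -0.48. The mean of -0.21 ± 0.37 (SD, n = 2) was the lowest of the 39 genes and rested on array 2 (limma, adjusted p = 0.790). Its duplicate spots on array 2 read -0.55 and -0.40.

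CD74, the invariant chain that guides class II molecules, also differed in sign, at -0.27 on array 1 and 0.14 on array 2, and its signal was low, between 3.20 and 10.8 times background. HLA-DRA, the alpha chain of HLA-DR, had ratios of -0.028 and -0.055. Its BM samples both lay below both MRS samples, an order that was not counted over all probes. The HLA-DR beta chain probe is filed as HLA-DRB1 but carries the accession and description of HLA-DRB4, a near-identical relative, and is called HLA-DRB4 here. It gave 621 and 604 times background in MRS and 502 and 480 in BM, and its ratios were 0.040 and 0.080 (mean 0.060 ± 0.028, SD, n = 2). With median centring, which leaves the trend of the ratio with intensity in place, it stood at 0.49 and passed the test (limma, adjusted p = 0.0252), the only one of the 39 to do so under any setting tried.

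CD80, a ligand of the T cell receptors CD28 and CTLA4, had the highest ratio of the 39 genes. Its normalised log2 level was 9.32 and 10.64 in MRS replicates 1 and 2 and 9.69 and 10.94 in BM replicates 1 and 2. BM was higher than MRS on each array, yet the groups overlapped, since both samples of array 2 were higher than both of array 1. The ratio was 0.37 on array 1 and 0.30 on array 2, with a mean of 0.34 ± 0.051 (SD, n = 2), or 1.26-fold, and a 95% interval from 0.19 to 0.48. The unadjusted p was 0.0023 and the adjusted p 0.571 (limma), so the difference did not pass over the 1856 probes. The 4 single-spot ratios were 0.39 and 0.36 on array 1 and 0.28 and 0.32 on array 2, all above 0.

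CD80 was also the only one of the 39 to stand apart from probes of like intensity on both arrays. Measured against the 100 probes nearest in intensity, its ratio lay 3.29 local SDs above their mean on array 1 and 2.29 on array 2. A size of 2 in the same upward direction on both arrays was met by 0.323% of all probes, and the downward counterpart by 0 of the 39 and 0.377% of all. CD80 met it also with print-tip loess and with 50 or 200 neighbours. In the unpaired fit without MRS replicate 1 or without BM replicate 2 its difference turned to -0.32 and -0.29, as the gap between the arrays then enters the value. CD160, an immunoglobulin-like receptor of natural killer and T cells, had 0.086 on array 1 and -0.16 on array 2.

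**Figure D3:**
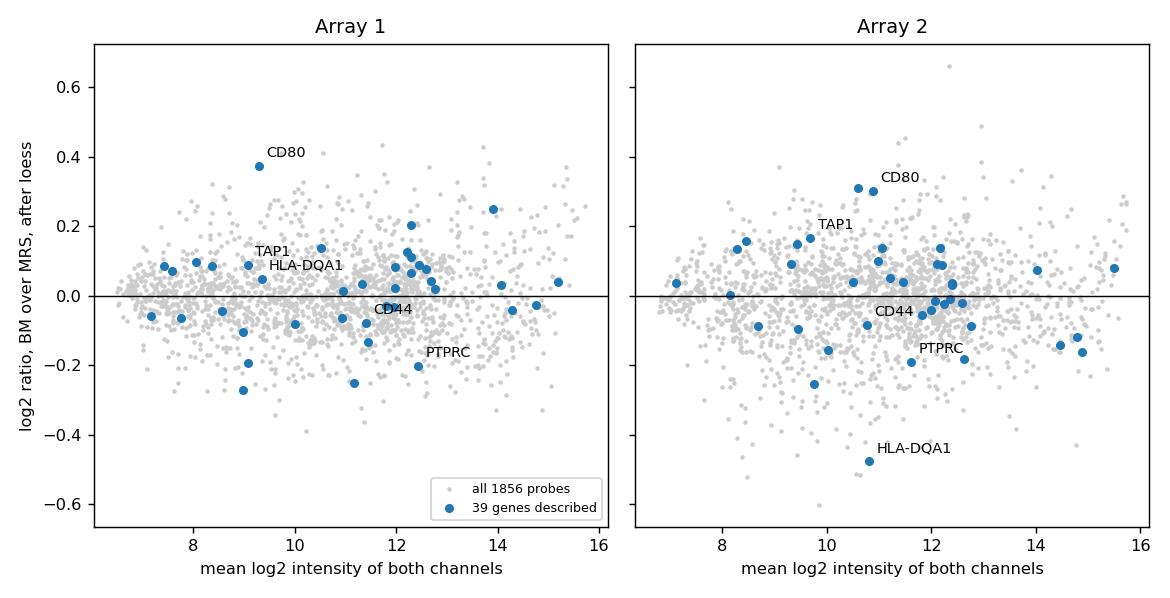
Log2 ratio of BM over MRS after loess against the mean log2 intensity of both channels on array 1 (left) and array 2 (right). Grey points are all 1856 probes and blue points the 39 genes, with CD80, PTPRC, TAP1, CD44 and HLA-DQA1 named. CD80 lies near the upper edge of the cloud on both arrays, at 0.37 and 0.30, and HLA-DQA1 near the lower edge on array 2 only.

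PTPRC, a tyrosine phosphatase that sets the threshold of antigen receptor signalling, was the lowest of the genes with one sign on both arrays. Its normalised log2 level was 12.56 and 11.68 in MRS replicates 1 and 2 and 12.35 and 11.49 in BM replicates 1 and 2. Each BM sample lay below its MRS partner, but BM replicate 1 lay above MRS replicate 2, so the groups overlapped. The ratios of -0.20 and -0.19 gave a mean of -0.20 ± 0.0073 (SD, n = 2), or 0.873-fold, with a 95% interval from -0.34 to -0.058. The unadjusted p was 0.016 and the adjusted p 0.594 (limma). Over the settings that keep all samples the mean ran from -0.20 to -0.18, and in the unpaired fit without MRS replicate 1 or without BM replicate 2 it turned to 0.24 and 0.24.

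The other leukocyte lineage genes did not follow PTPRC in one direction. Both arrays put 5 of the 16 genes of the leukocyte lists higher in BM, against 24.6% of all probes, and 2 lower (PTPRC and CD14), against 28.4%. The signs of 9 were opposite (46.9% of all probes), and the median mean ratio of the 16 was -0.0029. Among 5 T cell genes only CD3D, a signalling chain of the T cell receptor, had one sign on both arrays, at 0.089 and 0.036. The scavenger-type receptors CD5 and CD6 had -0.10 and 0.093, and -0.044 and 0.15, on arrays 1 and 2. The class I coreceptor chain CD8B had -0.065 and 0.041, and CD3G -0.058 and 0.038.

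Among the B cell genes, CD22, an inhibitory lectin of B cells, had ratios of 0.013 and 0.099. CD38, an NAD-consuming ectoenzyme found also on plasma cells, had 0.031 and -0.14, and its mean of -0.055 turned to 0.18 with median centring.

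Among the myeloid genes, CD14, a coreceptor for bacterial lipopolysaccharide, had normalised log2 levels of 9.42 and 9.25 in MRS and 9.23 and 9.16 in BM. Both BM samples lay below both MRS samples, an order that was not counted over all probes. The ratios were -0.19 and -0.095, with a mean of -0.14 ± 0.069 (SD, n = 2; limma, adjusted p = 0.770). LYZ, the lysozyme that cleaves bacterial cell walls, stood the other way at 0.066 and 0.092 (mean 0.079 ± 0.019, SD, n = 2). CD33, a sialic acid-binding lectin, had 0.042 and -0.087.

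The IgG receptors FCGR1A, of high affinity, and FCGR2A, of low affinity, were both higher in BM on both arrays. FCGR1A had 0.13 and 0.088, a mean of 0.11 ± 0.027 (SD, n = 2), and FCGR2A 0.071 and 0.16, a mean of 0.11 ± 0.061 (SD, n = 2). The adjusted p was 0.779 for each (limma), and FCGR2A gave only 2.42 to 5.91 times background. For FCGR1A both BM samples lay above both MRS samples, an order that was not counted over all probes. FCER1A, the alpha chain of the IgE receptor, had 0.087 and -0.087. KLRG1, an inhibitory receptor of natural killer and T cells that binds cadherins, had 0.098 and -0.25.

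For the antigens also known on epithelial cells, both arrays put 5 of the 9 lower in BM (28.4% of all probes) and 1 higher (24.6%), 3 differed in sign, and the median mean ratio was -0.056. This count was not tested, and 2 of the 5 had means above 0 with median centring, as given below. None passed the test, and 1, CD24, had an unadjusted p under 0.05. CD24, a heavily glycosylated adhesion molecule, had normalised log2 levels of 11.55 and 12.69 in MRS and 11.42 and 12.51 in BM. BM was the lower sample on each array, and the groups overlapped because array 2 was the brighter one. The ratios were -0.13 and -0.18, with a mean of -0.16 ± 0.033 (SD, n = 2; limma, unadjusted p = 0.036, adjusted p = 0.692).

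CD44, the receptor for hyaluronan and a known target of WNT signalling in the colon, had normalised log2 levels of 11.49 and 10.70 in MRS and 11.42 and 10.62 in BM. Each BM sample lay just below its partner, by much less than the gap between the arrays. The mean ratio was -0.081 ± 0.0054 (SD, n = 2), or 0.945-fold, with a 95% interval from -0.22 to 0.058 (limma, adjusted p = 0.792). In the unpaired fit it turned to 0.31 without MRS replicate 1 and to 0.32 without BM replicate 2.

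CD47, which signals to macrophages not to engulf the cell, had ratios of -0.039 and -0.16, and the complement inhibitor CD59 had -0.026 and -0.12. Both turned to positive means with median centring, at 0.19 and 0.26. Among the genes described the tetraspanins, which are membrane organisers, were CD9, CD63, CD81 and CD151, and these stayed between -0.065 and 0.039 on either array. CD82, a tetraspanin not included by the name rule, had -0.16 on array 1 and 0.20 on array 2. CD99, an adhesion molecule of leukocyte migration, had opposite signs at -0.25 and 0.14.

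LY6E, an interferon-inducible surface protein, had normalised log2 levels of 12.21 and 12.09 in MRS and 12.41 and 12.22 in BM. Both BM samples lay above both MRS samples, an order that was not counted over all probes. The ratios were 0.20 and 0.14, with a mean of 0.17 ± 0.046 (SD, n = 2). The unadjusted p was 0.029 and the adjusted p 0.692 (limma). CD34, a sialomucin of blood progenitors and endothelium, had 0.11 and -0.019. CD248, a stromal and tumour vessel antigen, had -0.080 and 0.31, opposite signs on the arrays.

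Genes that regulate presentation but are not caught by the name rule were read from further lists. Of 4 genes of antigen processing, 1 was higher in BM on both arrays (24.6% of all probes) and 1 was lower (28.4%). The higher one was CIITA, the master activator of class II genes, at 0.13 and 0.068. The lower one was RFXAP, a subunit of the factor that binds class II promoters, at -0.028 and -0.52, so that its mean of -0.27 ± 0.34 (SD, n = 2) came from array 2. RFXAP gave 3.59 and 37.7 times background in MRS replicates 1 and 2. ERAP1, which trims peptides for class I, had 0.20 and -0.098.

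Among 6 genes of interferon gamma signalling, both arrays put 0 higher (24.6% of all probes) and 3 lower in BM (28.4%), and 3 differed in sign (46.9%). With 6 genes this is a count and not a test of the group. IRF1, an activator of class I genes, had -0.045 and 0.066. Among 13 further leukocyte signalling genes, both arrays put 4 higher (24.6% of all probes) and 3 lower (28.4%). VAV1, an exchange factor downstream of antigen receptors, had 0.13 and 0.24 (mean 0.19 ± 0.079, SD, n = 2; limma, unadjusted p = 0.027, adjusted p = 0.681). Of 9 colon epithelial markers 3 were higher and 2 lower, beside the same shares, and 0 genes passed over all probes in any of these 4 lists.

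Differences between the 2 arrays exceeded those between the groups for most of the 39 genes. The median absolute change in normalised log2 level from array 1 to array 2 was 0.26, against a median absolute ratio of BM over MRS of 0.060. The change between arrays was the larger one for 33 of the 39 genes (84.6%) and for 91.1% of all probes. It exceeded a log2 of 1 for 6 genes (15.4%, against 14.6% of all probes), namely CD80, CD24, CD160, KLRG1, HLA-DQA1 and CD74.

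The change from array 1 to array 2 had the same direction in both groups for 36 of the 39 genes, against 92.9% of all probes. CD80 was higher on array 2 by a log2 of 1.32 in MRS and 1.25 in BM, or 2.50-fold and 2.38-fold. PTPRC went the other way, at -0.88 in MRS and -0.87 in BM, as did CD44 at -0.79 and -0.80. Array, replicate culture and replicate number coincide in this design, so cultures and slides cannot be told apart in these values.

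**Figure D4:**
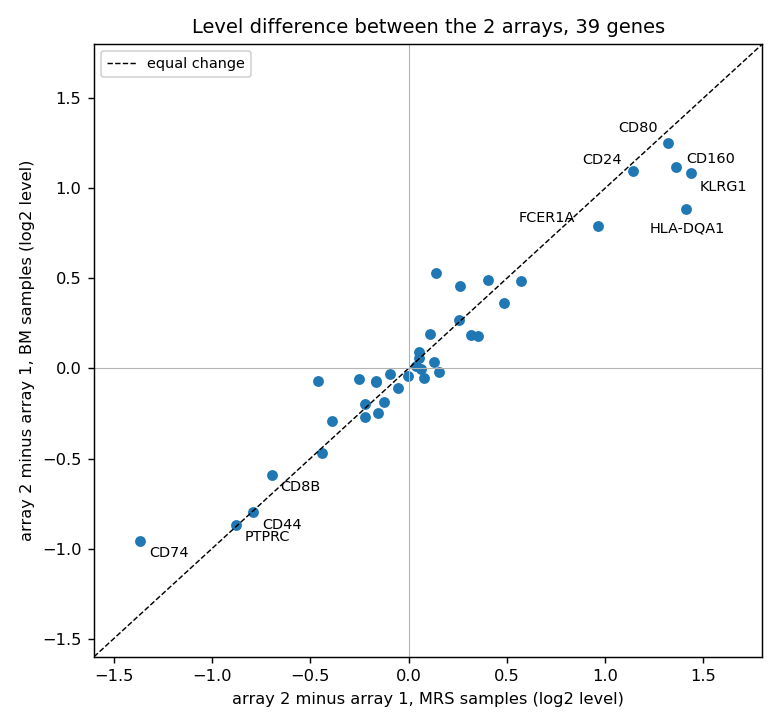
Change in normalised log2 level from array 1 to array 2 for the 39 genes, in the MRS samples (horizontal axis) and in the BM samples (vertical axis). The dashed line marks equal change in both groups. The points follow the line, from CD74 at -1.36 and -0.96 to KLRG1 at 1.44 and 1.08, and the vertical distance of a point from the line is the difference between its 2 ratios of BM over MRS.

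A z ratio and a fold change per spot come with the authors' deposited table. Of the 78 spots of these genes 4 (5.13%) reached a z ratio of 2 in size in the authors' deposited table, against 4.83% of all 3786 spots. Both spots of CD80 were among them, at z ratios of 2.82 and 3.01 and fold changes of 1.22 and 1.24 in the authors' deposited table. HLA-DQA1 had 1 such spot, at -3.25 with -1.86 at its duplicate, and FCGR2A had 1, at 2.03 with 1.32 at its duplicate, in the authors' deposited table.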

How the data were processed

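Per the file headers, the authors deposited the mean raw intensity, the local background and a net intensity of both channels for each of 3840 spots. The image software was not given in the sources used here. R 4.2.2 is named, without a role, in the submitters' processing notes. The series matrix values equal the deposited net intensity after rounding, so they are linear, not centred, and map to 1 sample per column. In the MRS channel the net intensity is raw minus background. In the BM channel it is 1.31 and 1.17 times that difference in the dimmest 10% of spots on arrays 1 and 2 and 0.975 and 0.973 times in the brightest 10% (medians), so the deposited BM net values were already adjusted with intensity. The authors' deposited table holds a z ratio, a score per spot, and a fold change, a ratio of BM to MRS.

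In limma 3.58.1 under R 4.3.3, the raw intensities were corrected with normexp (offset 50) and each array was normalised by loess. The 54 control spots had weight 0 in the loess and were left out afterwards. Spots of 1 accession were averaged. Per-sample log2 levels are the loess values scaled between arrays by Aquantile, and their difference within an array is the ratio. Probes were named through NCBI RefSeq, 38 of the 39 genes by accession and 1 by symbol. All 1856 probes were fitted in limma with an intercept on the 2 ratios (eBayes, two-sided, Benjamini-Hochberg over all probes, threshold 0.05). With 1 residual degree of freedom per probe, the test leans on a prior SD of 0.083, weighted as 3.50 degrees of freedom. The steps were run on simulated data with noise drawn from the fitted prior, and the outcome is not reported here. The planted changes were larger than the median absolute ratio of the 39 genes, so that run cannot show whether changes of this size would be found. The array pairs the samples, as the labels state, so the ratio holds the replicate number as a block. Spots at the scanner's maximum, no more than 2 in a channel, were kept.

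The genes and lists were chosen with earlier results of these data known. Named first were CD80, PTPRC, TAP1 and CD44, then up to 8 genes per direction with one sign on both arrays in order of their smaller ratio, then up to 4 per list, genes under 1.5 times background, and the 4 with the largest difference between arrays. The other genes are named to account for the rest, except that 1 gene is counted among the 39 but not reported here by name. Promoters were searched for the Y box, and an interferon response motif and a kB motif that were also looked for are not reported here. Alternatives were plain background subtraction, median centring, print-tip loess, the series matrix values, a filter on dim probes, an unpaired fit and samples left out.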

Additional observations from a re-analysis of the deposited data

How the results depend on the processing

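With all samples kept, 30 of the 39 genes held the sign of their mean ratio under plain background subtraction, median centring, print-tip loess, the series matrix values and the filter on dim probes, and 9 did not. With median centring CD33 turned to 0.021, CD38 to 0.18, CD3G to 0.068, CD47 to 0.19, CD59 to 0.26, CD81 to -0.0020 and FCER1A to 0.0053, and 1 of the 39 genes passed the test (34 of all probes). Plain background subtraction turned CD3G to 0.084 and FCER1A to 0.022. Print-tip loess turned CD5 to 0.014, CD9 to 0.013 and FCER1A to 0.035. The series matrix values turned CD3G to 0.015, CD5 to 0.045, CD9 to 0.015 and FCER1A to 0.064. The cause of these turns was not tested, and how many of all probes turned was not counted. Of the 9 genes, CD47, CD59 and CD81 had one sign on both arrays after loess. No gene of the 39 passed under the settings other than median centring. Against the highest control spot in place of 1.5 times background, 8 genes were above it in all 4 samples.

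Without the array as a pairing block (no replicate block) the mean ratios were the same by construction, as both arrays hold both groups. In that fit 0 genes passed and the smallest adjusted p was 1.00 (limma). Leaving out 1 sample in that unpaired fit lets the gap between arrays into the value by construction, and the lone sample is then assumed to vary like the others. Over these settings and each array alone, the median ratio of the 39 genes ran from 0.0033 to 0.086, and that of all probes from -0.032 to 0.023. At least 1 turn of sign was seen for 30 of the 39 genes, and the share of all probes that turned was not counted. Ranges were CD151 from -0.16 to 0.11, CD160 from -0.71 to 0.64, CD1D from -0.19 to 0.38, CD22 from -0.026 to 0.14, CD24 from -0.73 to 0.41, CD248 from -0.15 to 0.38, CD33 from -0.087 to 0.042, CD34 from -0.11 to 0.21 and CD38 from -0.23 to 0.12. Further ranges were CD3G from -0.20 to 0.18, CD44 from -0.48 to 0.32, CD47 from -0.34 to 0.14, CD5 from -0.13 to 0.12, CD59 from -0.20 to 0.052, CD6 from -0.18 to 0.28, CD63 from -0.039 to 0.024, CD74 from -0.75 to 0.61, CD80 from -0.32 to 1.00 and CD8B from -0.36 to 0.34. The remaining ranges were CD9 from -0.079 to 0.017, CD99 from -0.29 to 0.17, FCER1A from -0.48 to 0.48, FCGR2A from -0.13 to 0.36, HLA-B from -0.030 to 0.10, HLA-DQA1 from -0.92 to 0.49, HLA-E from -0.080 to 0.19, KLRG1 from -0.80 to 0.64, LYZ from -0.033 to 0.19 and PTPRC from -0.64 to 0.24. The 2 arrays, 1 line and 1 dye orientation limit what these ratios can show, and dim probes such as CD3G, CD9 and FCGR2A are limited by their signal over background.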
